A study of Homo sapiens with 6 samples.

Results

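The dual-specificity MAP kinase phosphatases are enzymes of the DUSP family that switch off MAP kinases, and their transcripts were followed in HepG2 cells that overexpress PBLD and in control cells. The members were DUSP1, DUSP2, DUSP4, DUSP5, DUSP6, DUSP7, DUSP8, DUSP9, DUSP10 and DUSP16, and every probe annotated to 1 of these symbols was taken. The arrays held 12 such probes among 47323, which stand for 10 of the 20046 genes measured. The list was chosen by enzyme family with its measured log2 differences between PBLD overexpressed and control cells already known, so these differences, and the intervals and calls that the fit over all genes gives for them, are a description and support nothing else.

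The study compared 3 samples of HepG2 cells labelled PBLD overexpressed with 3 labelled control. HepG2 is an established human liver tumour line that keeps many hepatocyte functions, and PBLD is a protein with a domain resembling those of phenazine biosynthesis enzymes. Both groups are the same line, and no treatment or time is given for either. How PBLD was introduced, whether the controls carried an empty vector, and whether the cells were a clone or a pool are not stated in the sources used here, and a vector and its delivery cannot be told apart from PBLD. The labels do not say whether a group's samples came from separate cultures, so the spread between them may be technical.

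MAP kinases (ERK, JNK and p38) are activated when an upstream kinase phosphorylates a threonine and a tyrosine in their activation loop. A MAP kinase phosphatase binds its kinase through an amino-terminal docking domain and removes both phosphates. Many of these phosphatase genes are themselves induced by the signals they end, which makes them part of a negative feedback loop, and in liver DUSP1 is a well-known early response gene. By place and preference they fall into nuclear inducible enzymes (DUSP1, DUSP2, DUSP4, DUSP5), cytoplasmic enzymes that prefer ERK (DUSP6, DUSP7, DUSP9) and enzymes that prefer JNK and p38 (DUSP8, DUSP10, DUSP16).

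The promoter sequences show how differently the members' upstream regions are built, and they are given for DUSP1, the member with the largest difference, for DUSP8 and DUSP2, which share a motif with it, and for DUSP6, which shares neither motif. Each sequence holds the 250 bases before the annotated start of the gene, 5′ to 3′ on the gene's strand, from RefSeq (GRCh38.p14). Capitals mark the cAMP response element TGACGTCA, the shorter TGACG on either strand, and the E-box CACGTG, and a run of capitals longer than 1 motif is an overlap. The intervals are chr5:172771196-172771445 for DUSP1, chr11:1572272-1572521 for DUSP8, chr2:96145441-96145690 for DUSP2 and chr12:89352502-89352751 for DUSP6, all on the minus strand.
DUSP1: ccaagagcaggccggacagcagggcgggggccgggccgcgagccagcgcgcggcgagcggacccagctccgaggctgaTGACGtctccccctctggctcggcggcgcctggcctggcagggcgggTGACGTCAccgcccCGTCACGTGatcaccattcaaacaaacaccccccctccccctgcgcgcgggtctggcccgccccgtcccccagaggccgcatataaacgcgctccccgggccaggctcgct
DUSP8: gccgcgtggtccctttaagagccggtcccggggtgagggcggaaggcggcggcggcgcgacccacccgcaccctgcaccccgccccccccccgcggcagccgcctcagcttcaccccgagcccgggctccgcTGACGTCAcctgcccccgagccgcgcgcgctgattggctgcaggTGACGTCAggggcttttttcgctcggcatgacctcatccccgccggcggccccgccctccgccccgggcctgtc
DUSP2: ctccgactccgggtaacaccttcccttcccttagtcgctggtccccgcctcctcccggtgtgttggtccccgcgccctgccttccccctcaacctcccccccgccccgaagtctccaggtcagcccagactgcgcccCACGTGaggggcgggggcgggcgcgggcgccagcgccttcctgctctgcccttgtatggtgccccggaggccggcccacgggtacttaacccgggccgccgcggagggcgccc
DUSP6: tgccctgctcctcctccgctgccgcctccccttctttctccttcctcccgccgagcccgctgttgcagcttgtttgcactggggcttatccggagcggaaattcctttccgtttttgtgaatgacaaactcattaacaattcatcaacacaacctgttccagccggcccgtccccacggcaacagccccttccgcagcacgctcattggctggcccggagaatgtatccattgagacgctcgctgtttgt

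Promoter entries were matched by symbol for 8 of the 10 members. The palindrome TGACGTCA, the sequence bound by CREB and ATF proteins, was present in DUSP1 and DUSP8, and in 1.65% of all 35116 promoter windows of the same length. DUSP1 held it once, from 125 to 118 bases before the start. DUSP8 held it at 118 to 111 and again at 74 to 67 bases before the start. The core TGACG, which is part of the palindrome and was counted on both strands, occurred 4 times in DUSP1 and 4 times in DUSP8, and at least once in 21.2% of all windows. The E-box CACGTG, a palindrome that USF proteins bind, was found in DUSP1 from 108 to 103 bases before the start and in DUSP2 from 113 to 108, against 6.34% of all windows, and in DUSP1 it overlaps a TGACG core. DUSP1 was the 1 member of the 8 with TATAAA (searched on the gene's strand alone), from 30 to 25 bases before the start, against 6.8% of windows. The GC box GGGCGG, on either strand, was in 7 of the 8 members and 42.6% of windows, DUSP6 being the member without it. The AP-1 site TGANTCA (6.57% of windows), the ETS site CCGGAA on either strand (14.5%) and the serum response element (1.16%) had 0 matches in these members. Such a match is a run of letters and does not show that a factor binds there.

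Expression was read on Illumina bead arrays, and the values below are those that the authors deposited, except where another scaling is named. The log base is not given, and the values were taken as log2 because their range fits it. Fold values rest on this reading. Each array had a median of 8 on this scale. A background limit was set on each array at the 95th percentile of 590 probes for receptor and hair keratin-associated genes silent in liver cells, and this limit was 8.06 to 8.09. Values near this limit carry little information on a difference. Since probes bind with different efficiency, levels were compared between arrays for 1 probe and not between genes. The overexpression was visible in PBLD itself, where the probe ILMN_1789653 read 12.62, 12.84 and 12.72 in PBLD overexpressed cells, against 8.002, 8.07 and 8.18 in control cells. Of the other 3 PBLD probes, ILMN_2304404 differed by 4.40, while ILMN_1699684 (-0.05) and ILMN_1760748 (0.05) were at background on all 6 arrays. Hepatocyte markers were above background on all 6 arrays for 8 of 8 genes. Of these, 4 were called lower in PBLD overexpressed cells and 0 higher. Beside this, 4.2% of all genes were called lower, and 840 of the 10880 above background on at least 3 arrays. Unlogged sums over the 8 markers, which the brightest weigh most in, were 252086 to 276608 in PBLD overexpressed and 276373 to 318264 in control cells. These ranges overlapped. Of the markers of other cell types, 3 of 5 fibroblast, 3 of 4 endothelial and 2 of 3 leukocyte genes were above background on 0 arrays, and 0 of these 12 genes were called. What part the 4 lower hepatocyte markers have in the results was not tested. In bulk RNA a smaller share of cells expressing a gene cannot be told apart from less RNA per cell.

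DUSP1, the nuclear phosphatase that inactivates JNK, p38 and ERK, was the member that stood out. Its probe read 10.93, 11.02 and 10.78 in PBLD overexpressed cells, against 13.19, 13.12 and 12.94 in control cells. The groups were far apart: the highest PBLD overexpressed array lay 1.92 below the lowest control array, on a scale where the arrays of a group varied by SDs of 0.12 (PBLD overexpressed) and 0.13 (control). The difference was -2.17 (SE 0.08, 95% interval -2.34 to -2.01), which is 4.50-fold lower. By size it ranked 3 among the 20046 genes, and among decreases it ranked 2. Even so, DUSP1 was above background on all 6 arrays, so its transcript was still present in PBLD overexpressed cells.

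Of the other nuclear members, DUSP5, which acts on ERK, went the opposite way. DUSP5 read 9.46, 9.31 and 9.21 in PBLD overexpressed cells, against 8.97, 9.15 and 8.82 in control cells. The groups did not overlap, but only 0.06 separated the lowest PBLD overexpressed array from the highest control array. The difference was 0.35 (SE 0.08, 95% interval 0.17 to 0.52), or 1.27-fold higher. It was past the threshold used for calls below, but no longer so without control replicate 1 (0.34), control replicate 3 (0.26) or PBLD overexpressed replicate 1 (0.28), or after normexp background correction (0.45).

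DUSP2, a nuclear phosphatase best known from activated lymphocytes, was close to background. DUSP2 read 8.24, 8.08 and 8.07 in PBLD overexpressed cells, with 2 of 3 arrays above the limit, against 8.27, 8.38 and 8.37 in control cells, all above it. All 3 PBLD overexpressed arrays were the lower ones, by as little as 0.03, and the difference of -0.21 (SE 0.07, 95% interval -0.35 to -0.06) did not reach the threshold for a call. DUSP4, a nuclear phosphatase for ERK and JNK, was at background. Its brighter probe ILMN_2283398 read 7.90, 8.10 and 7.92 in PBLD overexpressed cells and 7.90, 7.91 and 7.86 in control cells, with 1 array above the limit, and its other probe ILMN_1808391 was above the limit on 0 arrays. No difference in DUSP4 could be seen at this signal, with intervals of -0.06 to 0.23 and -0.11 to 0.16 for the probes.

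**Figure D1:**
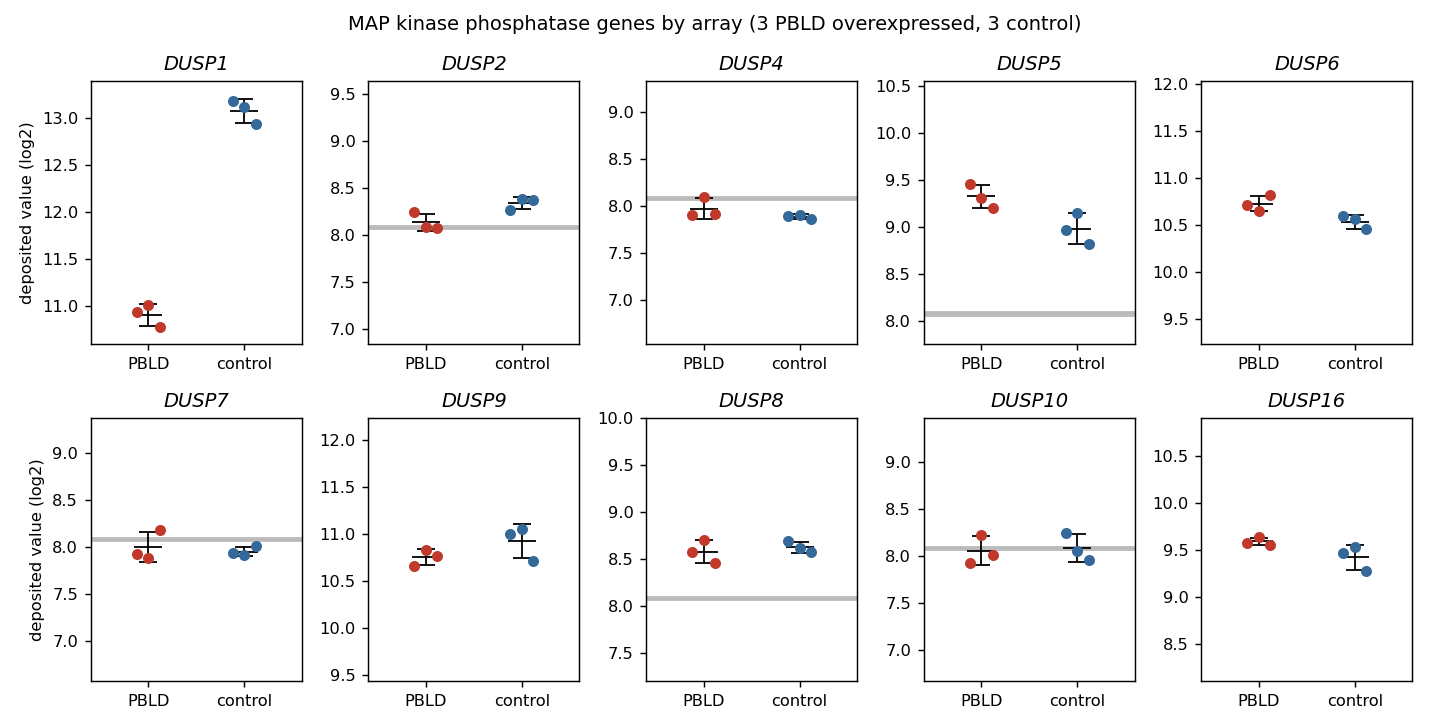
Deposited log2 value (vertical axis) of each of the 10 members on the 3 PBLD overexpressed arrays (red, left) and the 3 control arrays (blue, right), with mean and SD in black and the range of the background limit in grey. Every panel spans the same height; DUSP1 shows the wide gap of 1.92 between groups, and DUSP4, DUSP7 and DUSP10 lie around the limit.

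Among the cytoplasmic ERK phosphatases, DUSP6, the feedback inhibitor whose transcription follows ERK activity, was measured by a bright and a dim probe. The bright probe ILMN_2396020 read 10.71, 10.65 and 10.81 in PBLD overexpressed cells, against 10.59, 10.56 and 10.45 in control cells. The dim probe ILMN_1677466 read 8.70, 8.63 and 8.68 in PBLD overexpressed cells, against 8.68, 8.55 and 8.47 in control cells. The groups were separate by 0.06 on the bright probe and overlapped on the dim one. The differences were 0.19 (SE 0.07, 95% interval 0.05 to 0.33) and 0.10 (SE 0.07, -0.04 to 0.25), and neither passed the threshold. The array annotation gives these probes different RefSeq transcripts of the gene, so they need not measure the same isoforms.

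DUSP9, which prefers ERK and is known for its role in placenta and in insulin-responsive tissues, was well above background. DUSP9 read 10.66, 10.84 and 10.76 in PBLD overexpressed cells, against 10.999, 11.05 and 10.72 in control cells. Control replicate 3 lay among the PBLD overexpressed arrays, so the groups overlapped. The difference was -0.17 (SE 0.08, 95% interval -0.35 to 0.01) and was not called, whereas it reached -0.27 and a call without control replicate 3, and -0.24 and a call after cyclic loess. DUSP7, the remaining enzyme of this kind, was above the limit on 1 array, a PBLD overexpressed one at 8.18, and its interval ran from -0.12 to 0.21.

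The phosphatases that prefer JNK and p38 differed little between groups. DUSP16, which binds JNK strongly, read 9.58, 9.64 and 9.56 in PBLD overexpressed cells, against 9.47, 9.54 and 9.28 in control cells. Its PBLD overexpressed arrays were all higher, by as little as 0.03, with a difference of 0.17 (SE 0.07, 95% interval 0.01 to 0.32) that did not reach a call. DUSP8, whose promoter above has the cAMP response element 2 times, read 8.57, 8.70 and 8.45 in PBLD overexpressed cells, against 8.68, 8.62 and 8.57 in control cells. Its groups overlapped and its difference was -0.05 (SE 0.07, 95% interval -0.20 to 0.10). DUSP10 stood above background on 1 array of each group, and its interval was -0.21 to 0.15.

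**Figure D2:**
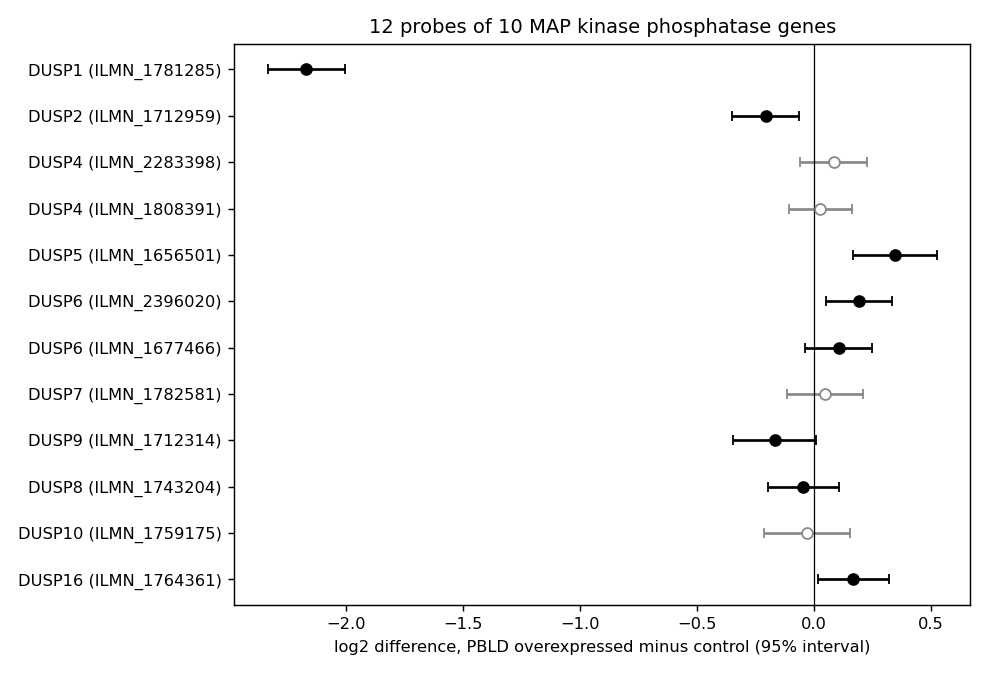
Difference in log2 value, PBLD overexpressed minus control, with its 95% interval from limma (horizontal axis) for the 12 member probes (rows). Open grey circles mark probes above background on fewer than 3 of the 6 arrays; DUSP1 at -2.17 lies alone on the left, and the other probes lie between -0.21 and 0.35.

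Differences were fitted with limma over all 47323 probes, and a gene was called where its Benjamini-Hochberg adjusted p over all probes was under 0.05, each gene being represented by its brightest probe. Of the 10 members, 1 was called lower (DUSP1), 1 was called higher (DUSP5) and 8 were not called, beside 10% of all genes called in either direction, 4.2% lower and 5.81% higher. The members' median difference was 0.01, beside 0.01 over all genes, and their median size regardless of sign was 0.17, beside 0.07 over all genes and 0.11 over the 10880 genes above background on at least 3 arrays. The groups did not overlap in 5 of the 10 members (DUSP1, DUSP2, DUSP5, DUSP6 and DUSP16), beside 23.4% of all genes and 33.9% of those above background. Because the family was chosen with these differences known, nothing is read from these counts. Of the members, 7 were above background on at least 3 arrays, and DUSP4, DUSP7 and DUSP10 were not. Across the array 1164 genes were called higher and 842 lower, which became 1177 and 1475 after cyclic loess and 245 and 406 after normexp with quantile normalization.

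**Figure D3:**
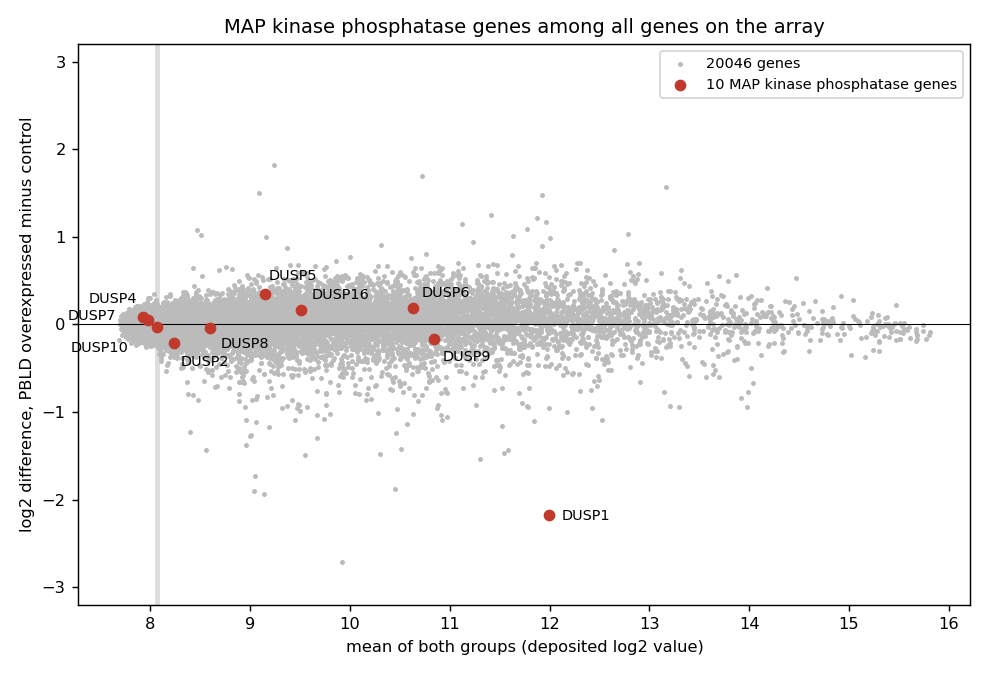
Mean of both groups (horizontal axis, deposited log2 value) against the log2 difference, PBLD overexpressed minus control (vertical axis), for 20046 genes in grey and the 10 members in red, with the background limit as a grey band; PBLD, at a difference of 4.64, lies beyond the axis. DUSP1 lies far below the cloud at a bright level, while the other members lie inside it.

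The genes with profiles most like a member's were found by the mean absolute distance over the 6 arrays, each profile taken relative to its control mean, among 10653 genes above background. Nearest to DUSP1 were FMO5, a flavin-containing monooxygenase (distance 0.14), TNNI2, a muscle troponin (0.17), JUN, an AP-1 subunit (0.22), PROM1, the stem cell marker CD133 (0.23), and CDH2, which is N-cadherin (0.27), and the next gene was at 0.37. The difference was -1.93 for FMO5, -1.90 for TNNI2, -1.87 for JUN, -1.74 for PROM1 and -2.71 for CDH2. The closeness is mainly one of size, since few genes had differences this large and 0 were within 0.1 of DUSP1. DUSP6 had the opposite surroundings, with 2688 genes within 0.1 and GXYLT1 (0.01), WDHD1, PIGK, METTL25 and ZBTB7A (0.02 each) the nearest. Its profile is thus shared by a large part of the array, and the order of these names carries little weight.

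The kinases that these phosphatases act on were examined next, from lists of 10 groups of pathway genes. Together these had 104 measured genes, of which 22 were called, beside 10% of all genes. Of the 104, 82 were above background on at least 3 arrays. Among all 10880 genes above background in this way, 1158 were called higher and 840 lower. Because the lists were chosen with earlier results of these data known, nothing is read from their counts. In the ERK module (8 measured genes), 2 were called lower, 0 higher and 6 did not pass, with a median of -0.01. MAP2K1, the MEK1 kinase that phosphorylates ERK, fell: it read 11.27, 11.45 and 11.23 in PBLD overexpressed cells, against 12.19, 12.18 and 12.41 in control cells, a difference of -0.95 (SE 0.08, limma adjusted p = 1.35e-06). MAP2K2, its relative MEK2, fell by 0.48 on the log2 scale (SE 0.10, limma adjusted p = 0.00686), with PBLD overexpressed arrays at 11.32, 11.39 and 10.90 and control arrays at 11.68, 11.74 and 11.61, and lost its call after normexp (-0.57). The ERK1 gene MAPK3 had a difference of -0.27 (SE 0.08, limma adjusted p = 0.0626) and did not pass, with a second probe at -0.29. After quantile normalization, 75th percentile scaling or cyclic loess, 3 genes of the list were called lower. The same count came with array weights, the replicate block or the filter on dim probes. Normexp called 1 lower, and 75th percentile scaling also called 1 higher.

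In the JNK module (11 measured genes), 2 fell, 0 rose and 9 did not pass, with a median of 0.00. MAPK9, the JNK2 kinase, read 9.82, 10.01 and 9.63 in PBLD overexpressed cells, against 10.54, 10.43 and 10.67 in control cells. Its difference was -0.73 (SE 0.09, limma adjusted p = 6.96e-05), and its second probe ILMN_2400297 was also called lower at -0.45 (limma adjusted p = 0.000834). MAPK8IP3, a JNK scaffold, fell by 0.33 on the log2 scale (limma adjusted p = 0.0261), a call it lost without control replicate 1 (-0.27), control replicate 2 (-0.36), PBLD overexpressed replicate 1 (-0.27) or PBLD overexpressed replicate 3 (-0.28), after normexp (-0.45), or with the mean of its probes (-0.17), where MAPK9 was the 1 gene of the list called lower. MAPK8, the JNK1 kinase, had a difference of 0.01 (limma adjusted p = 0.979). A further MAPK8 probe, ILMN_2308806, was above background on 2 PBLD overexpressed and 3 control arrays. It differed by -0.10 and was not called.

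In the p38 module (12 measured genes), 1 fell, 1 rose and 10 did not pass, with a median of 0.04. MAPK13, the p38 delta kinase, fell by 0.49 on the log2 scale (SE 0.09, limma adjusted p = 0.00231), with 11.36, 11.28 and 11.14 in PBLD overexpressed cells and 11.93, 11.79 and 11.54 in control cells. MAPKAPK3, a kinase activated by p38, rose by 0.35 (SE 0.07, limma adjusted p = 0.00718), a call lost after normexp (0.30). MAPK12, the p38 gamma kinase, had a difference of 0.20 (limma adjusted p = 0.0638). In the ERK5 module 0 of 4 genes passed in limma, and 0 did at an unadjusted p under 0.05.

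Other phosphatases were set beside the family. Of the atypical dual-specificity phosphatases, which lack the docking domain for MAP kinases, 0 of 14 passed in limma, where 0 were higher and 2 lower at an unadjusted p under 0.05. After quantile normalization or cyclic loess, 1 gene of this list was called lower. DUSP3, a small phosphatase that can act on ERK and JNK, had 12.41 ± 0.07 in PBLD overexpressed and 12.31 ± 0.10 in control cells (SD, n = 3 each), a difference of 0.10 (limma adjusted p = 0.615). The differences were 0.06 for DUSP14 (limma adjusted p = 0.835), -0.04 for DUSP22 (0.915) and -0.15 for DUSP26, which was at background (0.245). Of 8 phosphatases of other families that act on MAP kinases, 2 rose, 1 fell and 5 did not pass. PPM1D, the phosphatase WIP1 that acts on p38, rose by 0.45 (SE 0.07, limma adjusted p = 0.000718) and PPP2CA, a catalytic subunit of PP2A, by 0.24 (limma adjusted p = 0.0408). PPM1D lost its call after normexp (0.52). PPP2CA lost it without any of 5 arrays (0.19 to 0.26, all but PBLD overexpressed replicate 3), after normexp (0.20), and under robust eBayes with a trend, while its other probe ILMN_2196097 was called higher at 0.37 (limma adjusted p = 0.00747). PPM1A fell by 0.26 on the log2 scale on its brightest probe by the 6-array mean (limma adjusted p = 0.0234), but 4 other probes of the gene had differences of 0.06 to 0.19, and the call was lost under 5 alternatives.

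**Figure D4:**
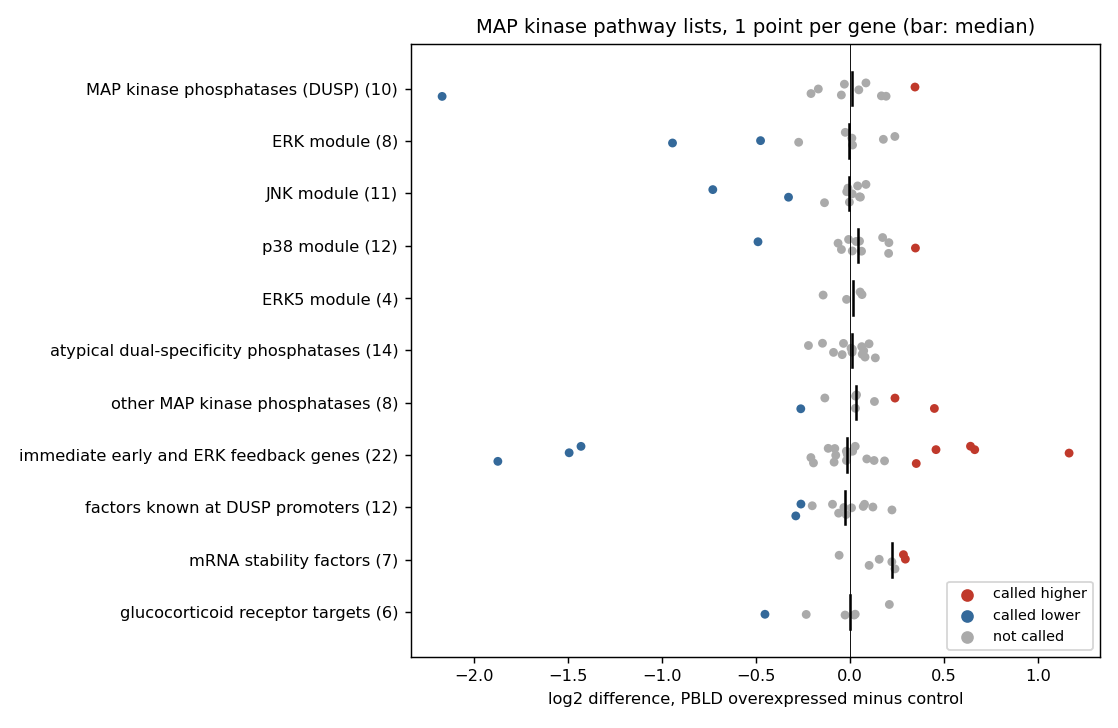
Difference in log2 value, PBLD overexpressed minus control (horizontal axis), for each gene of the DUSP family and of 10 pathway lists (rows, with the number of measured genes), in red where called higher, blue where called lower and grey where not called, with a black bar at each median. The medians lie near 0 except for the mRNA stability factors (0.22), and the immediate early row spreads from JUN at -1.87 to IER3 at 1.17.

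DUSP1 belongs to the immediate early genes, which signals such as MAP kinase activity switch on within minutes, and 22 genes of this kind and of ERK feedback were measured. Of these, 3 fell, 5 rose and 14 did not pass, with a median of -0.02. The AP-1 subunit JUN fell by 1.87 on the log2 scale (SE 0.08, limma adjusted p = 4.86e-10), with 9.62, 9.59 and 9.35 in PBLD overexpressed cells and 11.28, 11.51 and 11.39 in control cells. EGR1, a zinc finger factor, fell by 1.495 (SE 0.08, limma adjusted p = 1.39e-08), with 8.86, 8.84 and 8.73 in PBLD overexpressed and 10.15, 10.51 and 10.25 in control cells. FOS, the partner of JUN, was above background on 0 of 3 PBLD overexpressed arrays and was at least 2.28-fold lower (limma adjusted p = 1.04e-08), with control arrays at 9.14, 9.23 and 9.45.

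Other genes of the same list went the opposite way, so the list did not move as 1 block. IER3, an early gene that prolongs ERK signalling, rose by 1.17 (SE 0.09, limma adjusted p = 6.09e-07), with 12.59, 12.65 and 12.41 in PBLD overexpressed cells and 11.51, 11.48 and 11.17 in control cells. SPRY4 and SPRY1, Sprouty inhibitors of receptor signalling, rose by 0.64 and 0.46, PHLDA1 by 0.66 and the AP-1 subunit FOSL1 by 0.35 (limma adjusted p = 8.53e-06, 0.00211, 5.85e-05 and 0.00510), 4 genes picked out once their values were known. Their other probes above background on all 6 arrays differed by 0.53 for SPRY1 (called), by 0.12 for SPRY4 and by -0.13 for PHLDA1 (neither called). A further SPRY4 probe, ILMN_1688811, was above background on 1 PBLD overexpressed and all 3 control arrays. It differed by -0.08 and was not called. With the mean of a gene's probes, 3 genes of the list were called higher, and quantile normalization or cyclic loess called 5 lower. Neither ETV4 (-0.19) nor ETV5 (-0.21), ETS factors whose transcription follows ERK, passed on the deposited values (limma adjusted p = 0.139 and 0.0871). Their other probes differed by -0.20 for ETV4 and -0.02 for ETV5 (neither called). IER2, an early gene, had a difference of -0.02, JUND of -0.08 and ATF3 of 0.01, and none of these passed either.

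Factors known to act on DUSP genes or their messages showed smaller differences. Of 12 transcription factors known at DUSP promoters, 2 fell, 0 rose and 10 did not pass, with a median of -0.03. The ETS-family factors ELK1 and ETS2 fell by 0.29 and 0.26 (limma adjusted p = 0.0144 and 0.0176). ELK1 lost its call without control replicate 3, PBLD overexpressed replicate 2 or PBLD overexpressed replicate 3 (-0.27 to -0.25), and ETS2 without control replicate 1 (-0.22) or PBLD overexpressed replicate 1 (-0.25) and under robust eBayes with a trend, and both lost it after normexp (-0.54 and -0.37). Of 7 proteins that control the stability of messages such as DUSP1's, 2 rose and 5 did not pass, with a median of 0.22. Nucleolin, NCL, rose by 0.29 (limma adjusted p = 0.0220) and on its other probe ILMN_1695422 by 0.40, and KHSRP, a decay-promoting RNA-binding protein, by 0.28 (limma adjusted p = 0.0338). Both calls were fragile: 0 genes of the list were called without control replicate 3 or PBLD overexpressed replicate 2, after normexp, or under robust eBayes with a trend, 1 was called without any other array, and 4 with the replicate block. ZFP36, which promotes the decay of AU-rich messages, had a difference of 0.15 (limma adjusted p = 0.435). Of 6 glucocorticoid receptor targets, a class to which DUSP1 also belongs, SGK1 fell by 0.45 (limma adjusted p = 0.00172) and 5 did not pass. SGK1 lost its call after normexp (-0.51), and 2 of the 6 were called lower after quantile normalization, after cyclic loess or without control replicate 3.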

How the data were processed

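Total RNA from 6 HepG2 samples, 3 PBLD overexpressed and 3 control as titled, was hybridised to Illumina bead arrays. With 3 arrays a group, their number limits precision. The authors deposited a value table on a scale that fits log2 intensity. BeadStudio is named in the submitters' processing notes, and scaling, background treatment and log base are not given in the sources used here. The 12 columns of a second deposited table match no sample's labels and were not used. Members, lists and rules were chosen with earlier results of these data known.

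Every probe was fitted with limma 3.58.1 (lmFit, eBayes) in R 4.3.3 as PBLD overexpressed minus control. Tests were two-sided and adjusted by Benjamini-Hochberg across the 47323 probes. A gene's probe with the highest mean represented it. Of the probes, 30113 carry 1 symbol, 8 several and 17202 none, and 30074 matched RefSeq by Entrez identifier. No 2 arrays held identical values.

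Named are all members, up to 4 called genes per list with the smallest p, called MAP kinases, DUSP3, DUSP14, DUSP22, DUSP26, PBLD and the 5 genes most like DUSP1 and DUSP6. Others, including kinases and early genes given as not passing, were chosen after their values were seen. The steps were tested on simulated data, where they called 24% of 1.25-fold, 80% of 1.5-fold, 96% of 2-fold and 100% of 4-fold changes. A gene that was not called may therefore still differ by a small amount. The simulation changed 50 of the 47323 probes at each fold, with independent normal noise, and 154 probes were called. This is a far smaller share than in the data, so its adjusted threshold was stricter. The changed probes were all above background on at least 3 arrays, so the rates do not apply to DUSP4, DUSP7 or DUSP10. Motifs were searched in Python 3.11.15.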

Additional observations from a re-analysis of the deposited data

How the results depend on the processing

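The alternatives were quantile, 75th percentile, cyclic loess and normexp scaling, an intensity trend with robust eBayes, array weights, a replicate block, a filter on dim probes, the mean of a gene's probes, and each of the 6 arrays left out. DUSP1 kept its direction and call under these 15 (-2.32 to -2.11), and DUSP5 its direction under 15 and its call under 11. Cyclic loess called 2 members lower, as DUSP9 passed, and 1475 genes of the array lower, and quantile normalization called 1332 lower. Normexp with an offset of 50 and quantile normalization called 651 genes, 245 higher and 406 lower, with 0 members higher (DUSP1 alone called) and 10 pathway genes. A threshold of 0.01 gave 1171, 638 and 533 genes, with 0 members higher. Leaving out 1 array gave 1404 to 1950 called genes, 741 to 1293 higher and 520 to 989 lower, 1 to 2 members lower, 0 to 1 members higher and 17 to 21 pathway genes. The lowest counts were 520 lower without control replicate 1 and 741 higher without control replicate 3, and 775 were called higher without PBLD overexpressed replicate 2. Signs changed among uncalled members when 1 array was left out, over -0.117 to 0.0497 for DUSP10, -0.0459 to 0.103 for DUSP7 (negative without PBLD overexpressed replicate 3) and -0.110 to 0.0147 for DUSP8 (positive without the same array). DUSP10 was positive without control replicate 1 or PBLD overexpressed replicate 1 (0.0337). With the mean of a gene's probes PPM1A turned to 0.0422. The causes of these shifts were not tested. Among 18 named pathway genes, 227 of the recomputed values kept direction and call, 42 lost the call and 1 turned. The losses were 7 for PPP2CA, 6 each for MAPK8IP3, NCL and KHSRP, 5 for PPM1A, 4 each for ELK1 and ETS2, and 1 each for MAP2K2, MAPKAPK3, PPM1D and SGK1. The replicate block, on the numbers in the titles, called 2720 genes, 1 member lower and 1 higher, and 28 pathway genes. Same-numbered arrays correlated in their deviations at 0.04, 0.14 and 0.19 over all probes, where control replicate 1 correlated better with PBLD overexpressed replicate 2 (0.07). Over probes above background they correlated at 0.11, 0.08 and 0.06, and every array correlated best with its own number. Over these probes, differently numbered arrays correlated at -0.07 to -0.003. Deviations from a group's own mean cancel within the group, so positive same-numbered values force the others down on average. These negative values are therefore not a separate observation. Because in neither set did all 3 pairs exceed 0.1, the numbers were not taken as pairs. This cut-off is a working rule and cannot settle whether same-numbered arrays were handled together, which was not tested. Signal over background limits what can be said of DUSP4, DUSP7 and DUSP10.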
